A study of Mus musculus with 2 samples.

Results

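Laminin chains and integrin subunits were followed across the cell types of the newborn mouse lung. The members were all genes whose symbol names a laminin alpha, beta or gamma chain (*Lama*, *Lamb*, *Lamc*) or an integrin alpha or beta subunit (*Itga*, *Itgb*). This rule found 37 of the 27254 genes listed in either batch, of which 36 are described, 10 laminin and 26 integrin genes. The cells came from whole lungs of 2 wild-type female C57BL/6J mice on postnatal day 1, with 1 mouse per batch, and no treatment or mutant allele was compared. They were captured by Drop-seq, a droplet method that reads the 3′ end of transcripts and counts unique molecular identifiers (UMIs). All p-values below rest on these 2 mice.

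Laminins are secreted trimers of an alpha, a beta and a gamma chain that polymerise into the sheet of a basement membrane, and the alpha chain carries most of the sites bound by cells. Integrins are transmembrane pairs of an alpha and a beta subunit, and the pair decides the ligand. Alpha 3, alpha 6 and alpha 7 subunits form the main laminin receptors. Alpha 5, alpha 8 and alpha V subunits bind RGD ligands such as fibronectin and nephronectin, alpha 1 and alpha 2 bind collagens, and alpha L, alpha M, alpha X and alpha D pair with beta 2 on leukocytes. In the lung, alveolar epithelium and capillary endothelium rest on a shared basement membrane.

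After cells with over 10% mitochondrial UMIs were removed, 2388 cells with 4432553 UMIs remained in Batch 1 and 5615 cells with 18232639 UMIs in Batch 2. No barcode was shared between the batches. Clustering without the laminin and integrin genes gave 29 named types, of which 23 had at least 10 cells in each batch and entered the fit. A name ending in "-like" rests on fixed markers. All markers of AT1-like (7 of 7), AT2-like (9 of 9), mesothelial-like (7 of 7) and pericyte-like cells (11 of 11) stood higher than in the rest. Some markers did not in aerocyte-like (7 of 8 higher), mixed capillary-like (12 of 15), venous-like (5 of 6), myofibroblast-like (7 of 8) and smooth muscle-like cells (8 of 9). The same held for intermediate fibroblasts (15 of 18) and for macrophage markers in Ear2-rich (7 of 8) and Fabp4-rich cells (4 of 8). The Ear2-rich and Fabp4-rich myeloid cells and the mural cells with cardiac muscle genes are called by their leading genes, and the smooth muscle-like cells also held the myofibroblast marker *Tgfbi*. Levels are given as CPM, the UMIs of a gene per 1000000 UMIs of the type in that batch, with Batch 1 before Batch 2. Since only transcript ends are counted, a gene is compared between types, and genes are not compared with each other.

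Transcripts of a type were also counted in other types, which limits how low levels can be read. *Sftpc*, a surfactant gene of AT2 cells, was found at 286 to 5072 CPM in the 20 other types of Batch 1 and at 348 to 4202 CPM in those of Batch 2, against 122900 and 74400 CPM in AT2-like cells. Whether such counts came from free RNA, doublets or mixed clusters was not tested, nor was their part in the low levels of members. A count of 0 allows 3 UMIs, which was 0.961 CPM in the largest sum of cells and 226.2 CPM in the smallest, and intervals and limits cover counting error only. All 36 members described had UMIs in both batches, and 25 of them reached 50 CPM in at least 1 named type in both.

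The laminin alpha chain *Lama5* was highest in another type than *Lama4* and *Lama2*, and pericyte-like and adventitial fibroblast-like cells held both *Lama4* and *Lama2*. *Lama5*, an alpha chain of mature epithelial and vascular basement membranes (GRCm38 chr2:180176373-180225859), stood at 348 and 386 CPM in mesothelial-like cells, with exact 95% Poisson intervals of 190.0 to 583 and 221 to 627 CPM. It was at 116 and 202 CPM in AT1-like cells, with intervals of 61.9 to 199 and 168 to 240.5 CPM. The intervals of these types overlapped in both batches. AT1/AT2-like cells had 119.5 and 144 CPM and AT2-like cells 72.9 and 88.7 CPM. The genes that led the AT1/AT2-like clusters by fold were AT1 genes such as *Rtkn2* and *Ager*, with no AT2 marker among the top 10, while their 9 AT2 markers summed to 69390 and 58920 CPM, against 3723 and 3051 CPM in AT1-like and 150000 and 96430 CPM in AT2-like cells. Arterial-like cells had 65 and 72.4 CPM, and 4 types, among them macrophage-like and adventitial fibroblast-like cells, gave no *Lama5* UMI in either batch.

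*Lama4*, an alpha chain of vessel and muscle basement membranes (chr10:38965515-39110188), was found throughout the mesenchyme. Pericyte-like cells held 262 and 607 CPM, myofibroblast-like cells 161 and 543 CPM and matrix fibroblast-like cells 145 and 322 CPM. Batch 2 was the higher batch in each of these types. Lymphatic-like cells reached 248 and 292 CPM, adventitial fibroblast-like cells held 171 and 208 CPM, general capillary-like cells 48.1 and 50.4 CPM and AT1-like cells 35.8 and 4.88 CPM.

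*Lama2*, known from the muscle basement membrane (chr10:26980036-27619758), reached 50 CPM in both batches in 2 types only. These were adventitial fibroblast-like cells with 145 and 119 CPM and pericyte-like cells with 96.5 and 125 CPM, while matrix fibroblast-like cells held 18.6 and 8.12 CPM. *Lama3*, the alpha chain of epithelial anchoring laminins, was highest by its lower batch in AT1-like cells, at 62.6 and 29.3 CPM from 7 and 18 UMIs. *Lama1*, an embryonic alpha chain, gave 10 and 12 UMIs in all cells.

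*Lamb1*, the widespread beta chain (chr12:31265234-31329644), was held by several mesenchymal types and by mesothelial-like and lymphatic-like cells. Pericyte-like cells held 455 and 483 CPM, intermediate fibroblasts 280.1 and 365 CPM and matrix fibroblast-like cells 197 and 338 CPM. Smooth muscle-like cells held less than pericyte-like cells, and myofibroblast-like cells less than matrix fibroblast-like cells, by the folds given below. Mesothelial-like cells had 248 and 217 CPM and lymphatic-like cells 131 and 77.3 CPM, against AT1-like cells with 8.95 and 4.88 CPM and AT2-like cells with 59.7 and 26.3 CPM. *Lamb2*, a beta chain of mature membranes (chr9:108479736-108490530), was at 174 and 96.5 CPM in mesothelial-like, 138 and 70.1 CPM in pericyte-like, 143 and 52.9 CPM in arterial-like and 53.7 and 114 CPM in AT1-like cells.

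*Lamb3*, the beta chain of epithelial anchoring laminins (chr1:193207699-193343878), was held by AT1-like cells at 62.6 and 125 CPM, AT1/AT2-like cells at 89.6 and 75.5 CPM and AT2-like cells at 39.8 and 58.3 CPM. Mesothelial-like cells had 24.8 and 96.5 CPM. *Lamc1*, the common gamma chain (chr1:153218922-153332786), reached 50 CPM in both batches in 14 types, more than any other laminin gene described. Myofibroblast-like cells held 301 and 286 CPM, mesothelial-like cells 273 and 314 CPM and smooth muscle-like cells 193 and 356 CPM, and macrophage-like cells gave no *Lamc1* UMI in either batch.

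**Figure D1:**
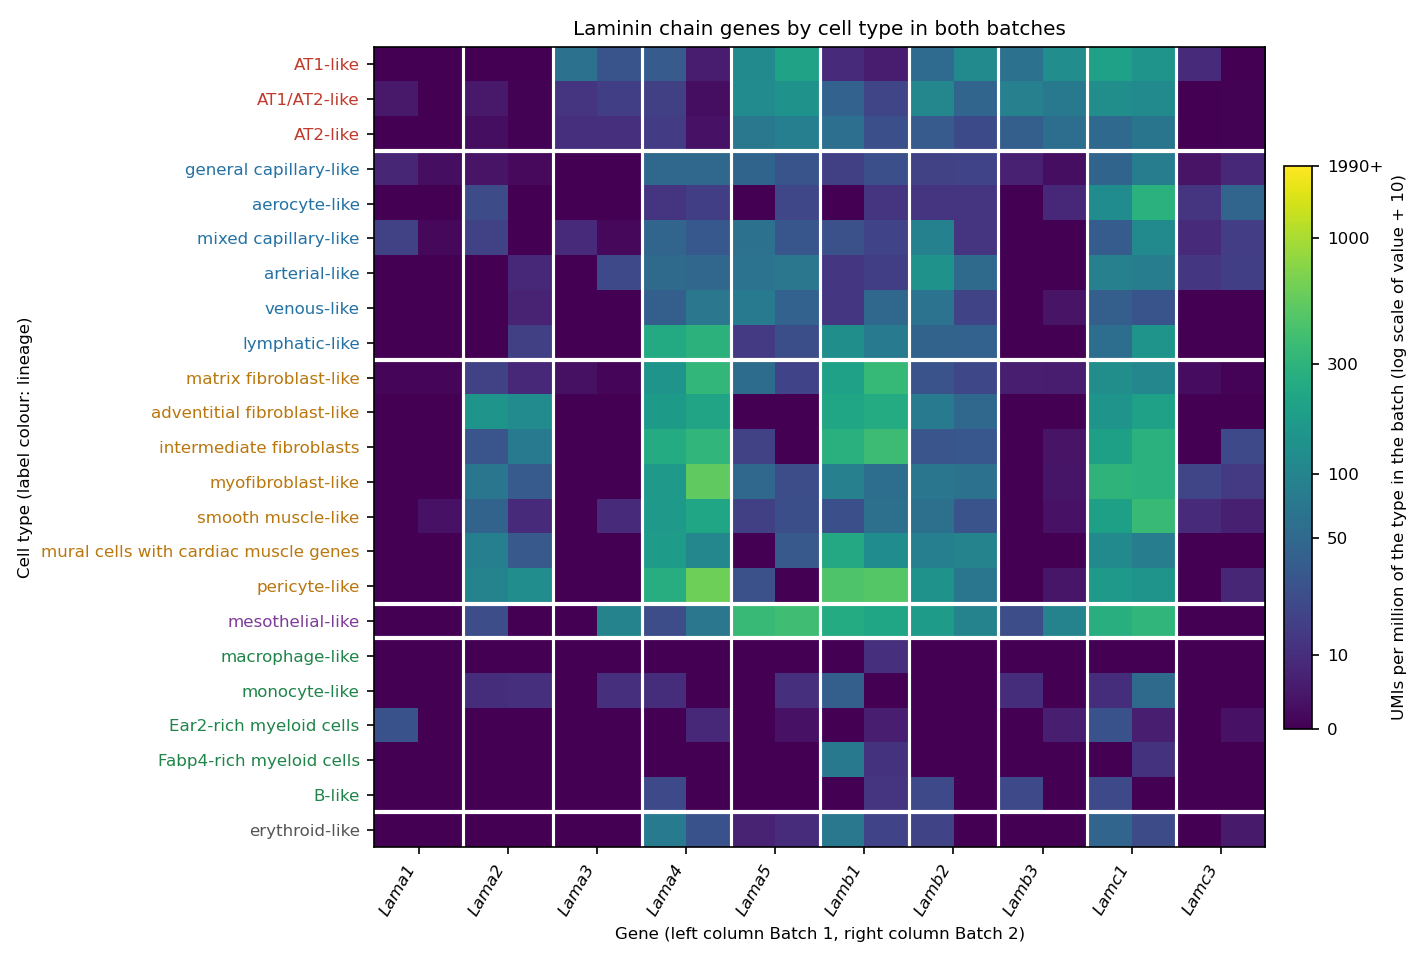
Levels of 10 laminin genes (columns, Batch 1 left and Batch 2 right) in 23 cell types (rows), in CPM on a log scale of the value plus 10. *Lamb3* is seen in the alveolar epithelial and mesothelial-like rows, and *Lama5* is brightest in the mesothelial-like row. *Lama4* and *Lamb1* are bright in the pericyte-like, matrix fibroblast-like and lymphatic-like rows.

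Summed over these 10 laminin genes, mesothelial-like cells held 1117 and 1279 CPM and pericyte-like cells 1144 and 1441 CPM. AT1-like cells held 546 and 626 CPM, AT2-like cells 287 and 279 CPM and general capillary-like cells 194 and 224 CPM. Erythroid-like cells, which make no basement membrane, still gave 225 and 84.8 CPM, and macrophage-like cells 0 and 10.3 CPM.

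Promoter windows from RefSeq (GRCm38.p6, 250 bases before to 50 after a start) were at hand for 23 members, in 26 windows. Those of the described laminin and integrin gene with the largest fitted difference in the epithelial and in the mesenchymal comparison below are shown, so that genes of different distribution can be set side by side. Where a gene had 2 windows, the upstream one is given. Capitals mark matches, on either strand, to GGGCGG (the GC box), CAAGTG (a core bound by NKX2-1, a lung epithelial factor), TGANTCA (AP-1) or TATAAA (the TATA box).
Lamb3, chr1:193301744-193302043, plus strand: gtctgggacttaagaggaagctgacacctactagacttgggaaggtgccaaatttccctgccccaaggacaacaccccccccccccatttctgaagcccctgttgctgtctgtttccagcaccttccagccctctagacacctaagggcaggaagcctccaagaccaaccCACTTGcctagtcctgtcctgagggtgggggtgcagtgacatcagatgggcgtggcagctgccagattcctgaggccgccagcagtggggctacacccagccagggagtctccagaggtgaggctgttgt
Itgb6, chr2:60722554-60722853, minus strand: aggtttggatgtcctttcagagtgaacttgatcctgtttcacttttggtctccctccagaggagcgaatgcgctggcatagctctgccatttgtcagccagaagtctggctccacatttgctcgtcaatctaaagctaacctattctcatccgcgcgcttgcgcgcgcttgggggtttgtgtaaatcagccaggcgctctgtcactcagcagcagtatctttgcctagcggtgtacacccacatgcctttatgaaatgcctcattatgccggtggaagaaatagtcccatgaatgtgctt
Lama2, chr10:27616893-27617192, minus strand: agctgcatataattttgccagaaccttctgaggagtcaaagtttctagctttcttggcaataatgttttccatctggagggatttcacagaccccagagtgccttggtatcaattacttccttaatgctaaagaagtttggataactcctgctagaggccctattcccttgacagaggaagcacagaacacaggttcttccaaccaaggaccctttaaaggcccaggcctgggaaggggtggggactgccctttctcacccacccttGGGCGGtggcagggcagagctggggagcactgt
Itga8, chr2:12301895-12302194, minus strand: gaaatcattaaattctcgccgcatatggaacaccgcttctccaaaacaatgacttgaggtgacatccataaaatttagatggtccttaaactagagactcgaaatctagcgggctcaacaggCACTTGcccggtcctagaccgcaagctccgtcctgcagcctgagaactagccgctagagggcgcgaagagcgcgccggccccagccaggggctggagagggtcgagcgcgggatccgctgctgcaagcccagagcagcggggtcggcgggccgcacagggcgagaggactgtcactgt
CAAGTG was present once in the window of *Lamb3* and once in that of *Itga8*, an epithelial and a fibroblast gene here, and 13.6% of all 32851 windows hold it. The *Lama2* window had 1 GGGCGG, which 35.7% of all windows hold, and the *Itgb6* window had none of the 4 motifs. Of the 26 member windows, 12 held the GC box, 4 the NKX2-1 core, 3 the AP-1 motif and 0 the TATA box. The AP-1 motif is in 7.81% and the TATA box in 13.6% of all windows.

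Among the laminin receptor subunits, *Itgb1*, the common beta partner (chr8:128685654-128733200), was found in every type in the fit. It ran from 177 and 96.7 CPM in B-like cells to 1323 and 2234 CPM in venous-like and 1240 and 1643 CPM in pericyte-like cells. General capillary-like cells had 867 and 1006 CPM, AT1-like cells 358 and 467 CPM and AT2-like cells 184 and 253 CPM.

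*Itga6*, an alpha subunit for laminin (chr2:71745616-71858416), was highest in some blood endothelial types. General capillary-like cells had 276 and 256 CPM, arterial-like cells 364 and 156 CPM and mixed capillary-like cells 229.7 and 173 CPM. Pericyte-like cells held 82.7 and 132 CPM and lymphatic-like cells 131 and 85.9 CPM. Aerocyte-like cells, also of the blood endothelium, held less than lymphatic-like cells in both batches. *Itga3*, another laminin receptor subunit (chr11:95044474-95076801), was at 98.4 and 133 CPM in AT1-like, 55.5 and 54.9 CPM in AT1/AT2-like, 60.4 and 46.4 CPM in aerocyte-like and 11.1 and 18.6 CPM in AT2-like cells. *Itga7*, the muscle laminin receptor subunit, reached 58.6 and 63.3 CPM in the mural cells with cardiac muscle genes, from 2 and 15 UMIs. *Itgb4*, the hemidesmosome subunit that pairs with alpha 6, was below 50 CPM in 1 or both batches of every type, with 49.6 and 72.4 CPM in mesothelial-like and 39.3 and 85.4 CPM in venous-like cells.

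Among the RGD-binding subunits, *Itga8* (chr2:12106632-12301922) separated the fibroblasts. Matrix fibroblast-like cells held 237 and 187 CPM and intermediate fibroblasts 225 and 349 CPM, against 25.6 and 29.8 CPM in adventitial fibroblast-like and 10.0 and 0 CPM in myofibroblast-like cells. *Itgb6*, an epithelial partner of alpha V (chr2:60598292-60722643), was at 125 and 111 CPM in AT1-like, 68.3 and 43 CPM in AT1/AT2-like and 4.42 and 12.5 CPM in AT2-like cells. *Itgav* had UMIs in every type in the fit, with 273 and 72.4 CPM in mesothelial-like cells from 11 and 3 UMIs and 60.2 and 79.6 CPM in myofibroblast-like cells. *Itga5*, the fibronectin receptor subunit, reached 50 CPM in both batches in smooth muscle-like cells alone, at 78.8 and 168 CPM. *Itgb5* did so in macrophage-like cells alone, at 189.8 and 61.8 CPM from 6 and 6 UMIs.

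The collagen receptor subunit *Itga1* (chr13:114953096-115101964) stood out in pericyte-like cells, at 344 and 459.5 CPM, with 45.9 and 62 CPM in mixed capillary-like and 52.8 and 45.5 CPM in general capillary-like cells. Both pericyte values lay above every value of the other types in the fit. The *Pelo* gene lies within *Itga1* on the same strand and has a row of its own. *Itga2*, another collagen receptor subunit, was highest by its lower batch in general capillary-like cells, at 54.4 and 42.1 CPM. *Itga9*, which binds tenascin C and other ligands (chr9:118606690-118901003), crossed lineages. It stood at 131 and 138 CPM in lymphatic-like, 124 and 116 CPM in AT2-like, 122 and 110.1 CPM in smooth muscle-like and 60.2 and 105 CPM in myofibroblast-like cells, against 17.9 and 13 CPM in AT1-like cells.

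**Figure D2:**
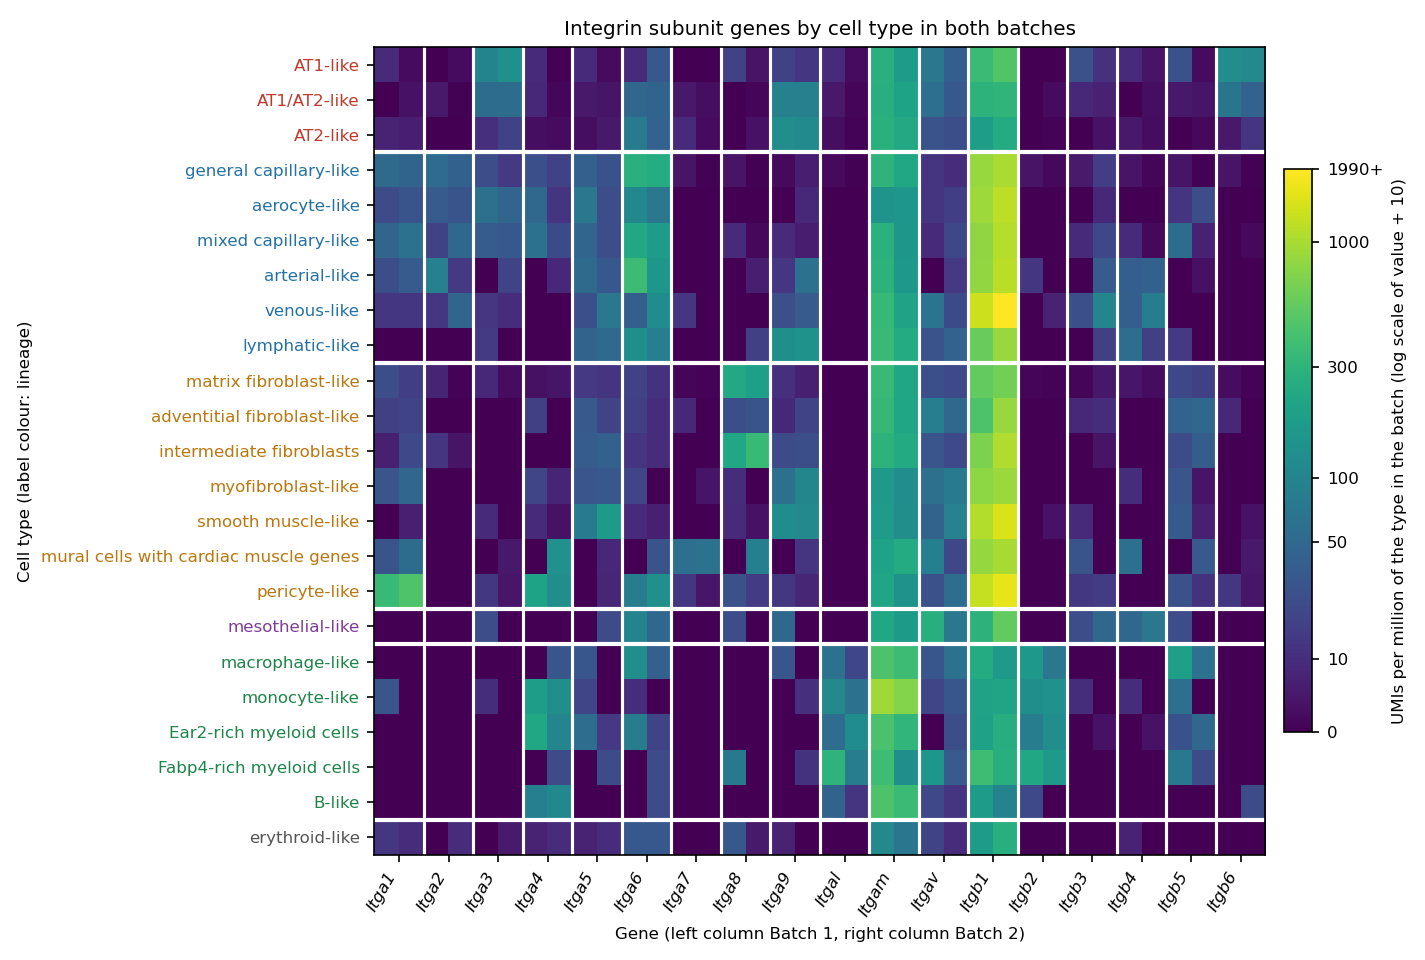
Levels of 18 of the 26 integrin genes (columns, Batch 1 left and Batch 2 right) in 23 cell types (rows), in CPM on a log scale of the value plus 10. *Itgb1* and *Itgam* are seen in all rows, *Itga6* is brightest in some blood endothelial rows, *Itga8* in matrix and intermediate fibroblasts and *Itga1* in pericyte-like cells.

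The leukocyte subunits were held by immune types. *Itgb2*, the leukocyte beta subunit (chr10:77530252-77565708), was at 130.4 and 136 CPM in monocyte-like, 158 and 72.1 CPM in macrophage-like and 226 and 167 CPM in Fabp4-rich myeloid cells, and 11 of the 23 types gave no UMI. *Itgal*, the LFA-1 alpha subunit, was at 302 and 83.3 CPM in Fabp4-rich and 110.3 and 62.9 CPM in monocyte-like cells. The Batch 1 values of Fabp4-rich cells rest on few UMIs, since these 10 cells held 13264 UMIs, and 3 UMIs make 226.2 CPM there. *Itga4*, which binds VCAM-1 with beta 1 or beta 7, was at 227 and 105 CPM in Ear2-rich, 180.5 and 126 CPM in monocyte-like and 88.5 and 109 CPM in B-like cells. It was also found in pericyte-like cells, at 207 and 128 CPM. *Itgb7* was at 70.2 and 42 CPM in monocyte-like cells, and reached 50 CPM in both batches in T-like and basophil-like cells, which entered no test and each gave 1 UMI in Batch 1.

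*Itgam*, the alpha M subunit of myeloid cells (chr7:128062640-128118491), did not follow its partner *Itgb2*. It was highest in monocyte-like cells, at 922 and 734 CPM, but all 23 types in the fit had at least 50 CPM in both batches. Matrix fibroblast-like cells held 348 and 216 CPM of *Itgam* and 0.933 and 0.507 CPM of *Itgb2*. The lowest type was erythroid-like, at 112 and 70.6 CPM, where all 5 general immune markers were at 0 in both batches. In the GENCODE annotation of this build, *Gm49368* overlaps *Itgam* on the same strand and runs past its 3′ end to position 128128160, and no row used here carries that name. Whether reads of *Gm49368* entered the *Itgam* row was not tested, and *Itgam* is uncertain as a measure of alpha M.

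**Figure D3:**
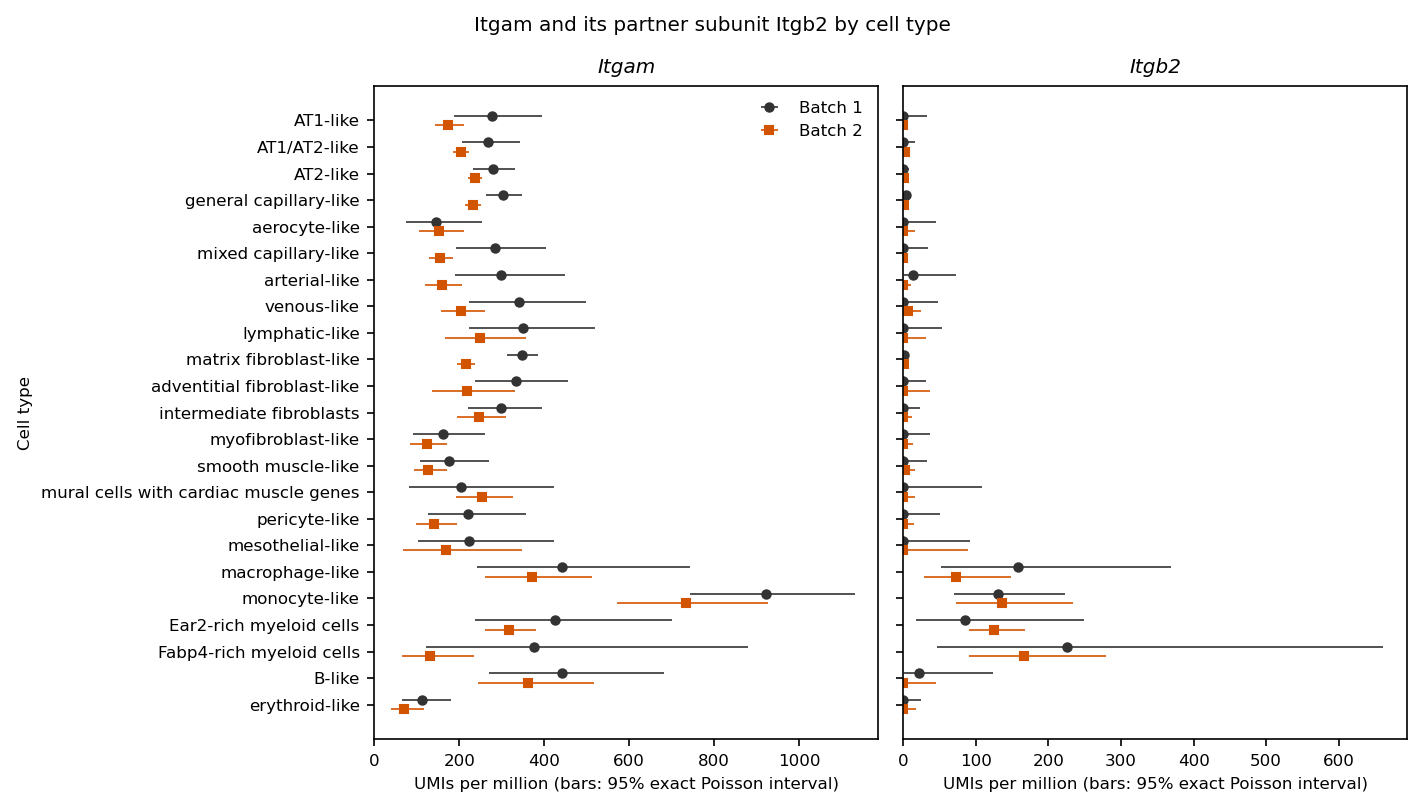
Levels of *Itgam* (left) and *Itgb2* (right) in 23 cell types, in CPM, with circles for Batch 1, squares for Batch 2 and bars for 95% exact Poisson intervals. *Itgam* is above 50 CPM in every row, while *Itgb2* rises in immune rows.

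In the platelet-like cells, which numbered 2 and 4 and entered no test, *Itga2b* and *Itgb3*, which together form the fibrinogen receptor, were at 3437 and 4148 CPM and at 2839 and 3001 CPM. No type in the fit had 50 CPM of either gene in both batches. The 11 members below that level in every type were *Itga2*, *Itga10*, *Itga11*, *Itgad*, *Itgae*, *Itgax*, *Itgb4*, *Itgb8*, *Lama1*, *Lama3* and *Lamc3*. *Itgax* gave 6 and 8 UMIs in all cells and *Itgad* 11 and 7, counts at which differences between types were not detectable.

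Lineages were compared by the mean of their types with edgeR's quasi-likelihood test on UMI sums of each type and batch, with batch in the model and Benjamini-Hochberg adjustment over 5828 genes. Of the 36 members described, 19 passed the count filter and were tested. In some comparisons the SE of a tested member could not be estimated. Such a member counts as not called, although the test could not decide. A member can pass through the types where it is high, so counts stand beside the share of all tested genes called, which includes genes that shaped the clusters. All these shares are of edgeR. Counts from DESeq2, an alternative test, have no share of all genes beside them and cannot be read against the edgeR shares. Differences are of means over types on a log scale, so a type with few cells weighs as much as one with many. Levels pooled over the cells of a lineage are given beside them. Each batch was also taken alone, as a difference of log2 CPM with a prior count of 2, which draws low genes towards 0 and is another scale than that of the fit. Of 63 called differences, 62 had the sign of the fit in Batch 1 and 63 in Batch 2, and 37 differed by over 1.5-fold between the batches, 35 of them with Batch 1 nearer 0.

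The epithelial types in the fit were all alveolar, and in them *Lamb3* and *Itgb6* were higher than elsewhere. Ciliated-like cells (9 and 74) and secretory airway-like cells (4 and 42) were too few in Batch 1 and entered no test. *Lamb3* was at 57.6 and 71.7 CPM pooled over the 3 epithelial types, against 4.13 and 3.25 CPM in the other 20 (adjusted p = 3.6e-16, edgeR). *Itgb6* was at 40.1 and 34.2 against 1.91 and 0.898 CPM (adjusted p = 2.7e-12, edgeR). By single types the groups overlapped, since mesothelial-like cells of Batch 2 had more *Lamb3* than AT2-like cells, and *Itgb6* was at 4.42 and 12.5 CPM in AT2-like and 0 and 24.2 CPM in B-like cells. *Lama5*, *Itga3*, *Itga9*, *Lamb2* and *Lamc1* were also called higher and *Lamb1* and *Itgb1* lower, so that 9 of 19 members were called, against 37.8% of all genes (28.9% higher and 8.87% lower). For *Lamc1* the pooled levels ran the other way, at 93.9 and 93.8 against 105 and 116 CPM. *Lama4*, at 18.8 and 2.78 against 112 and 158 CPM, was not called in edgeR, and some of the other types had no UMI of it. Its SE could not be estimated, so this test could not decide whether *Lama4* differed. DESeq2 called 7 higher and 7 lower.

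In endothelial types, *Itga6* and *Itgb1* were higher. *Itga6* had 238 and 209.9 CPM pooled over the 6 types against 33.9 and 33.8 CPM in the others, 7.03-fold and 6.22-fold higher (adjusted p = 7.8e-13, edgeR). *Itgb1* had 876 and 1122 against 467 and 485 CPM (adjusted p = 8.6e-14, edgeR), and *Itgav* was lower, at 16.1 and 14.2 against 39.5 and 32.3 CPM (adjusted p = 0.00026). With *Itga3* and *Lama5* called higher and *Lamb1* and *Itgam* lower, 7 of 19 were called, against 30.5% of all genes (21.8% higher and 8.72% lower). For *Lama5* the pooled levels ran the other way (45.4 and 34 against 55.4 and 77.8 CPM), and for *Itga3* they did so in Batch 2 (25.5 and 19.4 against 14.5 and 26.2 CPM). When each batch was clustered on its own, *Itga3*, *Lama5*, *Itgav* and *Lamb1* did not pass and *Itgam* turned in sign. DESeq2 called 4 higher and 5 lower.

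In mesenchymal types, *Lama2*, *Lama4*, *Lamb1* and *Itga8* were higher. *Lama4* was at 165 and 331 CPM pooled over 7 types against 40.0 and 23 CPM (adjusted p = 2.6e-17, edgeR), and *Lamb1* at 200.1 and 285 against 39.2 and 23.3 CPM (adjusted p = 9.5e-16). *Lama2* was at 38.2 and 30.0 against 4.4 and 1.22 CPM (adjusted p = 1.3e-10, edgeR), and *Itga8* at 178 and 145 against 5.28 and 1.74 CPM (adjusted p = 0.0002). By single types the groups overlapped for all 4 genes, since *Lama4* was high in lymphatic-like and *Lamb1* in mesothelial-like cells, *Lama2* was at 24.8 and 0 CPM in mesothelial-like cells, and *Itga8* was at 10.0 and 0 CPM in myofibroblast-like cells. *Itga1*, *Itgb1*, *Lamb2* and *Lamc1* were also called higher and *Itga6* and *Itgam* lower, 10 of 19 against 35.4% of all genes (25.5% higher and 9.92% lower). For *Lamb2* the pooled levels were 43 and 36 against 44 and 30.2 CPM, lower in Batch 1 and higher in Batch 2. DESeq2 called 9 higher and 7 lower.

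In the 5 immune types, the leukocyte subunits were higher and several laminin chains lower. *Itgal* was at 93.3 and 82.8 against 1.07 and 0.419 CPM (adjusted p = 1.6e-09, edgeR), *Itgb2* at 111 and 109.5 against 1.07 and 0.909 CPM (adjusted p = 1.3e-05), and *Itga4* at 133 and 88.5 against 15.1 and 11 CPM (adjusted p = 3.7e-05). By single types the groups overlapped for *Itga4*, since pericyte-like cells held more of it than monocyte-like and B-like cells in both batches. *Lama4* was lower, at 8.88 and 4.21 against 98.1 and 99.3 CPM, as were *Lamb1*, *Lamb2* and *Lamc1*. *Itgb1* was at 213 and 225 against 599 and 696 CPM (adjusted p = 4.7e-16, edgeR). With *Itgam* higher and *Itga6* and *Itga9* lower, 11 of 19 were called, against 37.7% of all genes (15.4% higher and 22.3% lower). DESeq2 called 4 higher and 9 lower.

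**Figure D4:**
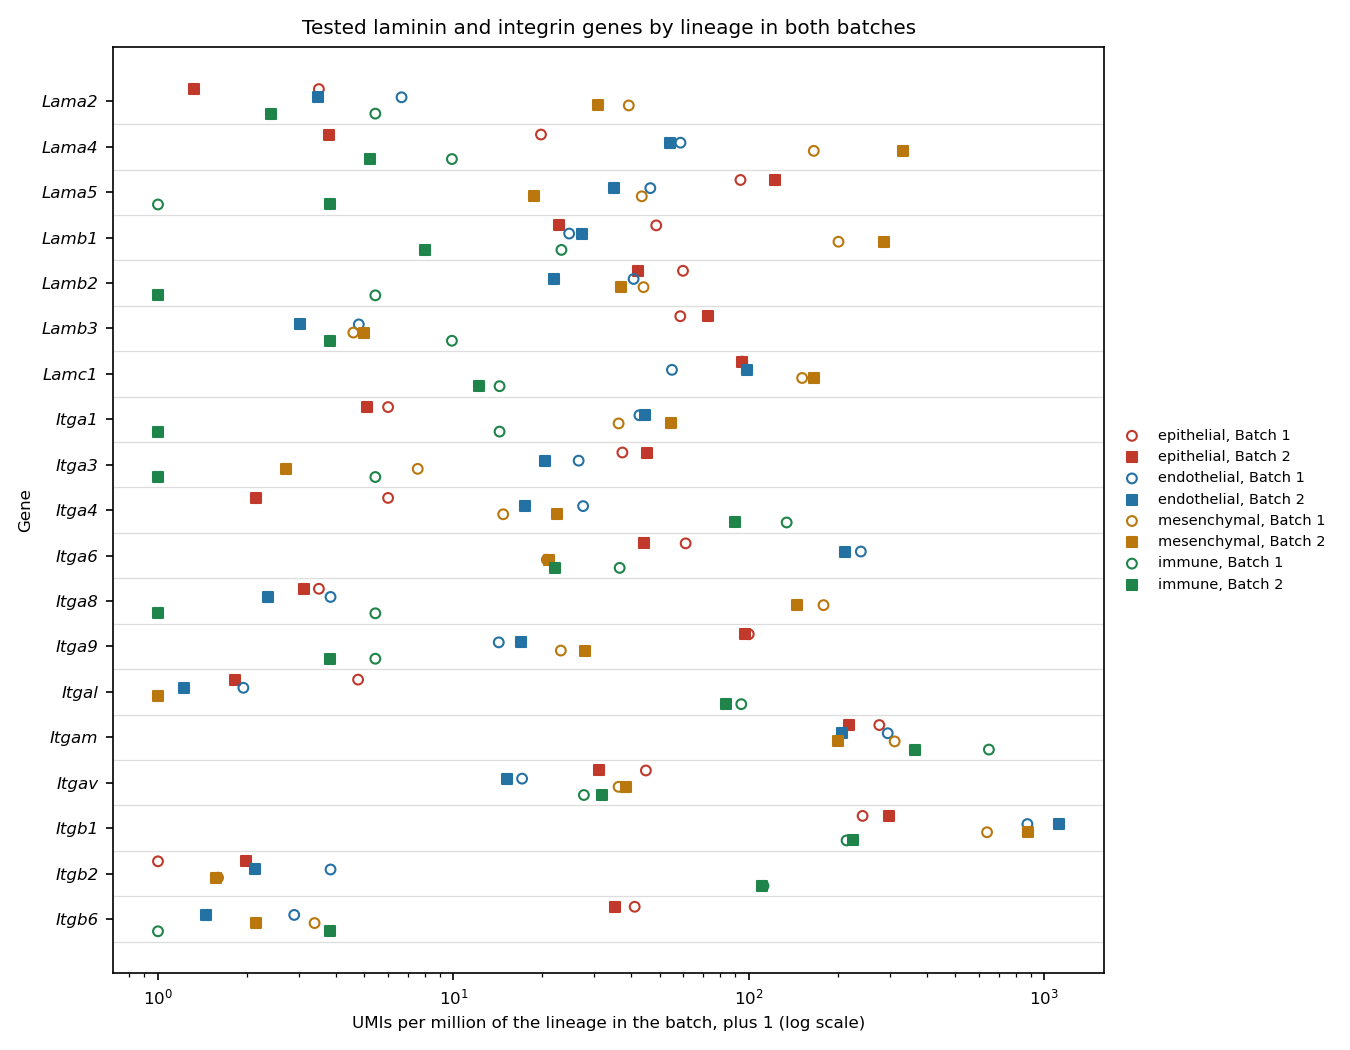
Levels of the 19 tested members (rows) pooled over the types of 4 lineages, in CPM plus 1 on a log axis, with open circles for Batch 1 and filled squares for Batch 2. Epithelial points lie to the right for *Lamb3* and *Itgb6*, mesenchymal points for *Lama2*, *Lama4*, *Lamb1* and *Itga8*, and immune points for *Itgal* and *Itgb2*.

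Within the alveolar epithelium, AT1-like cells, which cover the gas exchange surface, were compared with the surfactant-making AT2-like cells. *Itga3* was 8.91-fold and 7.18-fold higher in AT1-like cells (adjusted p = 0.002, edgeR), and *Itgb6* 28.3-fold and 8.85-fold (adjusted p = 0.0012). *Itga9* was 6.92-fold and 8.89-fold higher in AT2-like cells (adjusted p = 2.2e-05, edgeR), and *Lamb1* 6.67-fold and 5.38-fold (adjusted p = 0.0039). With *Lamb2* and *Lamc1* called higher in AT1-like cells, 6 of 19 members were called, against 13.5% of all genes (6.66% higher and 6.85% lower). *Lamb2* was at 53.7 and 114 CPM in AT1-like and 35.4 and 23.1 CPM in AT2-like cells, and the batches taken alone gave log2 differences of -0.05 and 1.91. With cells limited to 5% mitochondrial UMIs, *Lamb2* and *Lamc1* did not pass (adjusted p = 0.155 and 0.244, edgeR), and *Itga3* and *Itgb6* gave no value. *Lama5* was not called, with a log2 difference of 0.77 ± 0.45 (SE).

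Within the endothelium, aerocyte-like cells, a type of alveolar capillary cell, differed from general capillary-like cells in *Lamc1*, at 121 and 283 against 45 and 83.8 CPM (adjusted p = 0.025, edgeR). This was 1 of 19 members, against 0.704% of all genes (0.480% higher and 0.223% lower). Without batch in the model its adjusted p was 0.465 in edgeR. The fitted log2 difference was 1.64 ± 0.39 (SE), and the batches taken alone gave 0.80 and 1.47. *Itga6* was at 109 and 71.8 against 276 and 256 CPM, a log2 difference of -1.68 ± 0.47 (SE) that was not called (adjusted p = 0.097, edgeR).

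Lymphatic-like cells were compared with the 5 blood endothelial types. *Itga9*, known for its role in lymphatic valves, was at 131 and 138 against 5.06 and 12.7 CPM (adjusted p = 2.9e-06, edgeR). *Lama4* was at 248 and 292 against 44.5 and 46.7 CPM (adjusted p = 1.5e-05, edgeR), and *Lamb1* at 131 and 77.3 against 16.2 and 24.9 CPM (adjusted p = 0.0034). For these 3 genes both lymphatic-like values lay above every value of the blood types. *Itga1* had 0 UMIs in lymphatic-like cells and 44.5 and 44.6 CPM in blood types, at least 2.75-fold lower by the limit of 3 UMIs over both batches (adjusted p = 0.026, edgeR). *Itgb1* was lower, at 568 and 868 against 897 and 1129 CPM (adjusted p = 0.044, edgeR). In all, 5 of 19 were called, against 13.2% of all genes (6.55% higher and 6.69% lower). For *Lamb1* the fitted log2 difference was 2.26 ± 0.56 (SE), and the batches taken alone gave 2.33 and 1.39. With cells limited to 5% mitochondrial UMIs, *Itga1* and *Itgb1* did not pass, and with each batch clustered on its own *Lamb1* did not either. Mesenchymal markers (7 genes) summed to 58.3 and 34.4 CPM in lymphatic-like cells, against 12710 and 7318 CPM in matrix fibroblast-like cells.

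Among fibroblasts, matrix fibroblast-like cells exceeded adventitial fibroblast-like cells in *Itga8* by 9.23-fold and 6.29-fold (adjusted p = 0.0043, edgeR), and *Lama2* was 7.79-fold and 14.7-fold higher in the adventitial cells (adjusted p = 0.0036). These 2 of 19 members, 1 in each direction, compare with 7.19% of all genes (3.12% higher and 4.07% lower). *Itga8* did not pass in DESeq2 (adjusted p = 0.0948) or with each batch clustered on its own (adjusted p = 0.739, edgeR). For *Lama2* the fitted log2 difference was -3.29 ± 0.76 (SE), and the batches taken alone gave -2.10 and -3.19.

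Myofibroblast-like cells, the contractile cells of the growing alveolar septa, had 10.0 and 0 CPM of *Itga8* against 237 and 187 CPM in matrix fibroblast-like cells (adjusted p = 4.9e-06, edgeR). They held 5.87-fold and 17.2-fold more *Itga9* (adjusted p = 5e-05, edgeR), and *Lamb1* was 2.18-fold and 5.85-fold higher in the matrix cells (adjusted p = 0.00077). With *Itgam* lower, 4 of 19 were called, against 11.5% of all genes (4.60% higher and 6.93% lower). DESeq2 called 4 higher and 2 lower, with *Lamb1* at an adjusted p of 0.0575. The fitted log2 difference was -6.32 ± 0.95 (SE) for *Itga8*, with -3.92 and -5.96 in the batches taken alone, and 3.18 ± 0.55 (SE) for *Itga9*, with 1.27 and 3.15.

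Between smooth muscle-like and pericyte-like cells, 5 of 19 members were called, against 10.3% of all genes (5.49% higher and 4.86% lower). *Itga1* was at 0 and 5.79 against 344 and 459.5 CPM (adjusted p = 4.8e-08, edgeR), and *Itga4* was 23.6-fold and 44.4-fold higher in pericyte-like cells (adjusted p = 0.00027). *Lamb1* was 17.3-fold and 7.94-fold higher there (adjusted p = 5.3e-06, edgeR), and *Itga6* 9.45-fold and 22.9-fold (adjusted p = 0.00022). *Itga9* alone went the other way, 8.89-fold and 14.1-fold higher in smooth muscle-like cells (adjusted p = 0.00073, edgeR). The 6 endothelial markers summed to 193 and 89.6 CPM in pericyte-like and 96.3 and 52.1 CPM in smooth muscle-like cells, and their part in the *Itga6* difference was not tested. The fitted log2 difference was -4.93 ± 0.97 (SE) for *Itga4*, with -3.12 and -4.26 in the batches taken alone, -4.02 ± 0.79 (SE) for *Itga6*, with -1.95 and -3.79, and 3.64 ± 0.78 (SE) for *Itga9*, with 2.31 and 3.33.

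Mesothelial-like cells, the outer lining of the lung, numbered 20 and 11 and were compared with the matrix and adventitial fibroblast-like types. *Lama5* was at 348 and 386 against 49.6 and 18.4 CPM (adjusted p = 3.1e-06, edgeR). *Lamb3* was at 24.8 and 96.5 against 5.04 and 4.83 CPM, from 1 and 4 UMIs (adjusted p = 0.018, edgeR), and *Itgav* at 273 and 72.4 against 31.9 and 23.7 CPM (adjusted p = 0.045). These 3 of 19 members compare with 10.5% of all genes (5.80% higher and 4.70% lower). The fitted log2 difference was 6.49 ± 0.97 (SE) for *Lama5*, with 3.01 and 4.86 in the batches taken alone, 5.24 ± 1.51 (SE) for *Lamb3*, with 0.94 and 3.65, and 1.76 ± 0.59 (SE) for *Itgav*, with 1.63 and 0.50. For these 3 genes the fitted value lay above both single-batch values, which are on the scale with the prior count. Adventitial fibroblast-like cells, which weigh as much as matrix fibroblast-like cells in the fit, gave no *Lama5* UMI in either batch. The part of this in the fitted value was not tested. The 7 AT1 markers summed to 372 and 458 CPM in mesothelial-like and 85.8 and 136 CPM in matrix fibroblast-like cells, with *Aqp5* and *Rtkn2* at 0 in both mesothelial sums. The 9 AT2 markers summed to 894 and 869 CPM and 627 and 1514 CPM, and the part of epithelial RNA in the laminin differences was not tested.

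**Figure D5:**
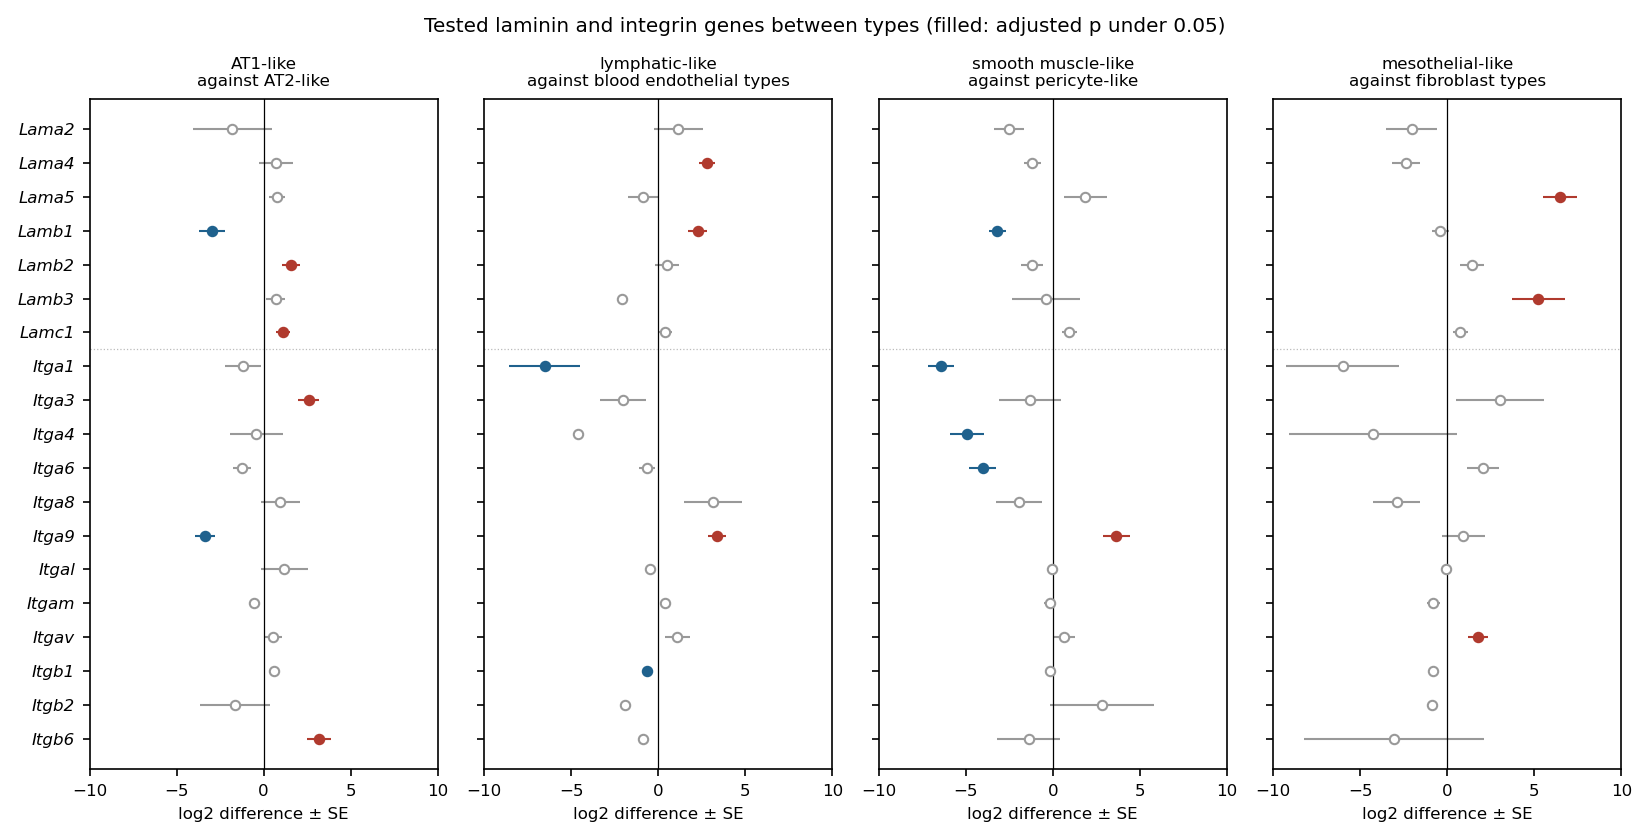
Fitted log2 differences with their SE for the 19 tested members in 4 comparisons of cell types, with red for higher and blue for lower in the first-named type, open points for members not called, and no visible bar where the SE could not be estimated or is smaller than the point. *Itga9* is red in lymphatic-like and smooth muscle-like cells and blue in AT1-like cells, and *Lama5* and *Lamb3* are red in mesothelial-like cells.

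Macrophage-like and neutrophil-like cells were not compared, because Batch 1 held 3 neutrophil-like cells. Over the 11 comparisons made, 63 differences were called among the 19 tested members. The share of all genes called is given with each comparison and was not taken over all of them, so these counts are a description. *Lamb1* was higher in 2 and lower in 6 of them, and *Itga9* higher in 4 and lower in 2. Higher and lower refer to the side named first, and the lineage comparisons use the same types, so these tallies are no trait of a gene.

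The ligands, other receptors and adaptors that work with laminins and integrins were followed as a list of 45 genes, of which 38 were tested. Some of them shaped the clusters, so their counts are a description. The shares of all genes are again of edgeR, and the DESeq2 counts have no such share beside them. In the alveolar epithelial types 18 were higher and 3 lower, against 37.8% of all genes (28.9% higher and 8.87% lower), and DESeq2 called 17 higher and 14 lower. In endothelial types 19 were higher and 2 lower, against 30.5% of all genes (21.8% higher and 8.72% lower), with 21 and 8 in DESeq2. In mesenchymal types 15 were higher and 6 lower, against 35.4% of all genes (25.5% higher and 9.92% lower), with 16 and 12 in DESeq2. In immune types 2 were higher and 20 lower, against 37.7% of all genes (15.4% higher and 22.3% lower), with 2 and 23 in DESeq2. *Col4a3*, a collagen IV chain of the alveolar basement membrane, stood at 707 and 670.1 CPM in AT1-like and 33.2 and 88.4 CPM in AT2-like cells. *Nid1*, which links laminin to collagen IV, was highest in pericyte-like cells, at 634 and 790.5 CPM. *Npnt*, a ligand of the alpha 8 receptor, was at 899.9 and 529 CPM in the matrix fibroblast-like cells that hold *Itga8*, and at 707 and 992 CPM in AT1-like cells. AT1/AT2-like cells had 789.5 and 963.3 CPM of *Npnt*, AT2-like cells 488.5 and 958.3 CPM and mesothelial-like cells 322.7 and 892.7 CPM. *Tnc*, a ligand of the alpha 9 receptor, was highest in smooth muscle-like cells, at 1007 and 475 CPM. *Fermt3*, the kindlin of blood cells, was at 200.5 and 199 CPM in monocyte-like cells and at 2092 and 2383 CPM in the few platelet-like cells. Between AT1-like and AT2-like cells 16 partners were higher and 2 lower, against 13.5% of all genes (6.66% higher and 6.85% lower), with 18 and 2 in DESeq2. Between aerocyte-like and general capillary-like cells 0 of 38 passed in edgeR, against 0.704% of all genes (0.480% higher and 0.223% lower), with 3 at an unadjusted p under 0.05 and 0 called by DESeq2.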

How the data were processed

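The deposited files hold UMI counts per gene and cell, 1 matrix per batch. The authors aligned reads to mm10 with Bowtie2 2.2.7 and counted unique UMIs over exons for cells with at least 500 genes. Cells with over 10% mitochondrial UMIs were left out here (1 in Batch 1 and 1940 in Batch 2), and 142 cells called doublets by Scrublet were removed. The others were clustered with scanpy 1.11.5 without member, mitochondrial or haemoglobin genes, and 357 cells stayed unnamed. UMIs were summed per type and batch into 46 sums of 13260 to 3122000 UMIs. They were tested with edgeR 4.0.16 (R 4.3.3; filterByExpr, TMM, type and batch as terms, threshold 0.05). Types of a batch share a mouse: over 253 pairs of types, deviations had a median correlation of 0.166, and 213 pairs were over 0.1. On simulated data for AT1-like against AT2-like cells (3952 genes), 17% of 100 genes changed 2-fold and 56% of 100 changed 4-fold were recovered, with 5 false of 78 calls. Apart from these genes the simulated types of a batch shared 1 profile. The differences between types in the real fit of 5828 genes were not modelled, so its recovery and false calls can differ. Members, lists and comparisons were chosen with earlier results of these data known. Of the 37 members, 1 is not reported here and enters no count or sum of members. Of the other 36, those with at least 50 CPM in a named type in both batches are given with values, and the others by counts. DESeq2 1.42.0, no count filter, no batch term, 5% mitochondrial UMIs, doublets kept, batches clustered alone and single batches were alternatives.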

Additional observations from a re-analysis of the deposited data

Results flagged for a closer look

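The 1940 Batch 2 cells above the mitochondrial limit entered no comparison. They held 7831 UMIs of laminin and integrin genes among 5030373 UMIs, with all 36 members described detected. This was 1557 CPM, against 1590 CPM in the kept Batch 2 cells and a limit of 0.596 CPM for 3 UMIs. The levels of these cells by type were not tested.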

How the results depend on the processing

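Of the 63 called differences, 43 passed in every fit that gave a value, and all 63 passed with doublets kept. With DESeq2 60 of 62 passed, without a count filter 56, without the replicate block 56, at 5% mitochondrial UMIs 47 of 55, with each batch clustered on its own 46 of 59, and with types of mixed identity left out, a setting chosen after seeing the data, 59. Counts of called members moved in DESeq2 for epithelial (14) and mesenchymal types (16), for AT1-like against AT2-like cells at 5% mitochondrial UMIs (2), and for aerocyte-like cells without a filter (2), without the replicate block (0, with 3 at an unadjusted p under 0.05 in edgeR) and with only the compared types (2). They also moved for lymphatic-like cells at 5% (3) and with each batch clustered on its own (2), for matrix against adventitial fibroblast-like cells in DESeq2 (1) and with batches clustered on their own (1), for smooth muscle-like cells with only the compared types (9), and for mesothelial-like cells without a filter (5) and with doublets kept (5). *Itgam* in endothelial types turned to 0.016 with batches clustered on their own, and *Lamb2* between AT1-like and AT2-like cells to -0.053 without Batch 2 (1.91 without Batch 1). The cause was not tested. Without the replicate block, the 7 calls lost included *Lamc1* in aerocyte-like and *Lamb2* in AT1-like cells. Values of 1 batch alone are differences of log2 CPM with a prior count of 2, with no residual degrees of freedom, no test and another scale than the fit's. Of them, 63 of 63 kept their sign without Batch 1 and 62 without Batch 2. Mesothelial-like cells gave no value at 5% or with batches clustered on their own, nor aerocyte-like cells in the latter. DESeq2 moved the median difference of all genes by 0.62 for mesothelial-like, 0.36 for myofibroblast-like and 0.21 for aerocyte-like cells. The comparison of macrophage-like with neutrophil-like cells was not run.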
